A study of Mus musculus with 3 samples.

Results

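In mouse blastocysts at embryonic day 3.5, the inner cells that leaned to the epiblast (EPI) side of a marker score were compared with those that leaned to the primitive endoderm (PrE) side. The cells were chosen by measured values. Of 288 cell barcodes in 3 libraries, 200 had at least 2000 genes with a count and an Actb level of at least 500 CPM (the count scaled to the total of the cell). Of these, 82 had a summed level of 6 trophectoderm genes (Krt8, Krt18, Gata3, Id2, Tspan8 and Lgals3) below 800 CPM and are called inner cells here, and the other 118 are called cells over the gate. Each inner cell was given a score, the mean log2(CPM+1) of 7 epiblast genes (Nanog, Fgf4, Gdf3, Tdgf1, Prdm14, Utf1 and Morc1) minus that of 8 primitive endoderm genes (Gata6, Gata4, Sox17, Pdgfra, Col4a1, Col4a2, Lamb1 and Serpinh1). Both means are called arms of the score. Within each library the highest-scoring cells, 1 in 3 rounded down, form the upper group, and as many lowest-scoring cells form the lower group. The upper group held 10, 7 and 9 cells of replicates 1, 2 and 3, the lower group held the same numbers, and 30 cells in all lay between.

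All 3 libraries carry the same labels and make up 1 group. The embryos came from a mouse line with an H2B-mCherry reporter at Klf2, were taken out at embryonic day 2.5 and were grown to the blastocyst stage in static and in shaking culture; which cell saw which culture is not labelled, and no mCherry level per cell is given. Single cells of mCherry-positive embryos were picked by mouth pipette, and an adapted Smart-seq2 protocol with barcoded oligo(dT) primers captured the 3' ends of polyadenylated RNA. The labels do not say that the libraries came from separate animals or cultures. Groups are compared within libraries, so a p-value here measures how the difference between groups varies from library to library. That variation may be technical, and the p-value leaves out the uncertainty of drawing both groups on the same cells.

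The inner cell mass of the blastocyst gives rise to the epiblast, the source of the embryo proper, and to the primitive endoderm, which lines the cavity and later forms the yolk sac. Early inner cells carry both NANOG, a pluripotency factor, and GATA6, a factor of the endoderm. Cells that go on to the epiblast secrete FGF4, and FGF signalling through ERK moves neighbouring cells towards GATA6, then PDGFRA, GATA4 and SOX17. Maturing primitive endoderm lays down a basement membrane of laminin and type IV collagen, for which SERPINH1 is the collagen chaperone.

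In summed levels, the genes that set the groups apart were mostly not the ones that give the arms their names. The upper group was led by Prdm14, Utf1 and Morc1, which stood above the lower group in all 3 libraries. The lower group was led by Pdgfra, the collagens Col4a1 and Col4a2, the laminin chain Lamb1 and Serpinh1, each above the upper group in all 3 libraries. The summed levels of Nanog and Gata6 did not separate the groups. In these sums the names "epiblast-leaning" and "endoderm-leaning" are carried by part of the markers, so the groups are called upper and lower below. All values of these 15 genes describe the choice of cells and get no test.

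Among the epiblast factors, Nanog summed over the upper group was 88.0, 322 and 108 CPM in replicates 1, 2 and 3, and over the lower group 88.0, 372 and 83.1 CPM. The means were 173 ± 129 and 181 ± 165 CPM (SD, n = 3 libraries), and 25 of 26 upper and 19 of 26 lower cells had a Nanog count. The median cell had more Nanog in the upper group in each library, at 56.9, 279 and 81.2 CPM against 33.9, 180 and 68.9 CPM. Prdm14, which represses DNA methylation and FGF signalling genes in naive pluripotency, was at 33.3, 117 and 23.3 CPM in the upper group and 8.33, 10.97 and 1.23 CPM in the lower group, with no overlap. It had a count in 20 upper and 11 lower cells, and in 44 of the 118 cells over the gate. After each cell was thinned to 50000 counts, which kept 24 upper and 22 lower cells, Prdm14 was left in 13 and 3 cells and Nanog in 21 and 17. A single cell held 85.5% of the upper Prdm14 counts of replicate 2.

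Morc1, a silencer of transposable elements in the germ line, was at 108, 67.4 and 20.2 CPM in the upper group against 7.97, 4.92 and 8.88 CPM in the lower group. In replicate 2, 90.7% of the upper Morc1 counts came from 1 cell. By the median cell Morc1 was at 111, 9.03 and 8.58 CPM against 0, 2.17 and 0 CPM. Utf1, a chromatin-bound factor of pluripotent cells, was at 831, 80.9 and 227 CPM against 382, 1.89 and 13.8 CPM. Within each library the upper value of Utf1 was the higher, while across libraries the 2 groups overlapped, since replicate 1 lay high in both. Tdgf1, the Nodal co-receptor Cripto, summed to 1005, 301 and 375 CPM against 101, 475 and 183 CPM, higher in the upper group in 2 of 3 libraries. By the median cell it was higher there in each library, at 921, 424 and 148 CPM against 81.0, 404 and 44.8 CPM. Every upper cell and 18 of 26 lower cells had a Tdgf1 count, as did 62 of the 118 cells over the gate.

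The 2 secreted ligands of the epiblast arm were less regular. Fgf4 was at 15.1, 14.1 and 2.28 CPM in the upper group and at 0, 0 and 7.40 CPM in the lower group, with a count in 8 and 1 of 26 cells. Gdf3, a TGF beta family ligand, was at 274, 46.7 and 121 CPM in the upper group and at 50.4, 76.8 and 184 CPM in the lower group. By these sums the upper group was the higher in replicate 1 alone, and by the median cell in replicates 1 and 2.

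On the endoderm side, Gata6 was at 28.5, 217 and 164 CPM in the upper group and at 163, 151 and 154 CPM in the lower group. The upper group was the higher in replicates 2 and 3, and 22 upper, 23 lower and 113 of 118 cells over the gate had a Gata6 count. The later factors were sparse: Gata4 had a count in 7 upper and 11 lower cells, with summed levels from 0.740 to 9.06 CPM, and Sox17 in 1 upper and 3 lower cells. Pdgfra, the receptor that marks cells committed to the primitive endoderm, was at 19.6, 28.7 and 18.5 CPM in the upper group and at 40.6, 143 and 50.6 CPM in the lower group. The Pdgfra levels did not overlap, and 12 upper against 22 lower cells had a count, or 8 of 24 against 16 of 22 after thinning. Pdgfra was found in 23 of the 118 cells over the gate.

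The 4 matrix genes, like Pdgfra, were higher in the lower group in each library. Lamb1 was at 40.5, 83.8 and 30.7 CPM in the upper group and at 87.0, 426 and 296 CPM in the lower group. Serpinh1 was at 72.9, 130 and 9.57 CPM against 118, 541 and 222 CPM. Col4a1 was at 58.2, 67.9 and 41.3 CPM against 109, 211 and 158 CPM, and Col4a2 at 67.6, 14.1 and 28.8 CPM against 93.1, 96.1 and 54.5 CPM. Lamb1 and Col4a1 were apart in every pairing of an upper with a lower library, whereas Serpinh1 and Col4a2 overlapped across libraries.

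**Figure D1:**
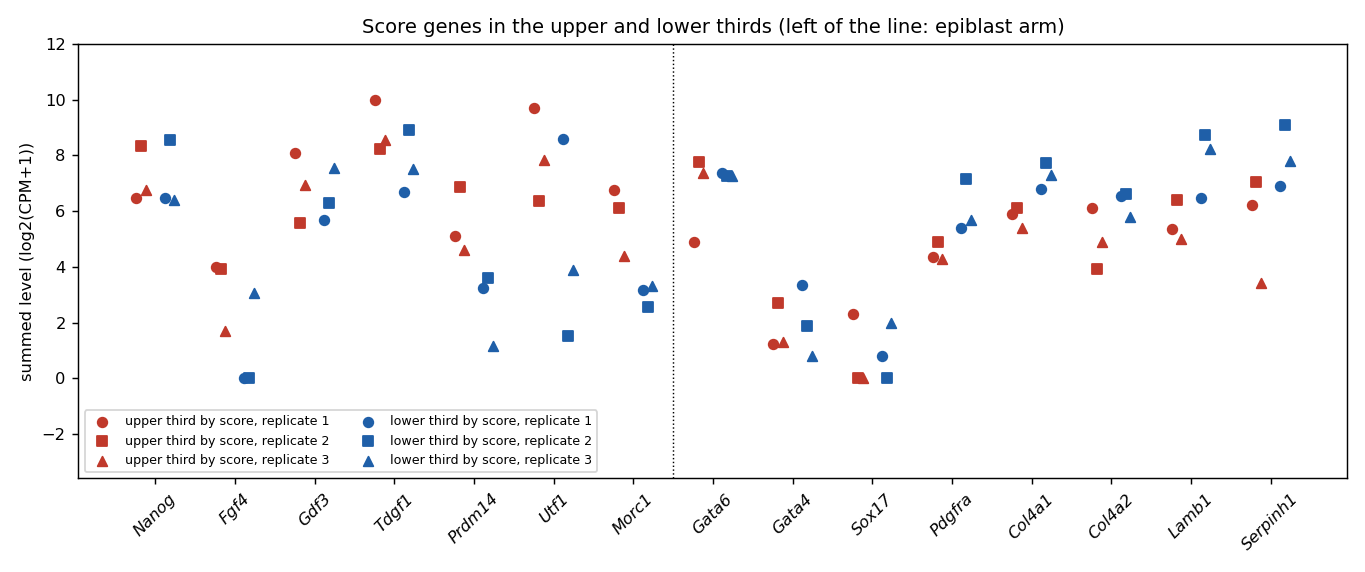
Level of each score gene summed over the cells of the upper group (red) and lower group (blue), as log2(CPM+1), with 1 symbol shape per library; the 7 epiblast arm genes stand left of the dotted line and the 8 primitive endoderm arm genes right of it. Prdm14, Morc1, Pdgfra, Col4a1 and Lamb1 are apart between the groups, while Nanog and Gata6 overlap.

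The paired collagen genes start next to each other. Per the GENCODE M21 annotation of GRCm38, the assembly that mm10 names, Col4a1 (ENSMUSG00000031502) lies on the minus strand at chr8:11198423-11312826 and Col4a2 (ENSMUSG00000031503) on the plus strand at chr8:11312805-11449287, so that their starts overlap by 22 bases. The stretch is shown because 2 of the 5 genes that lead the lower group are transcribed outwards from it in opposite directions. It runs along the plus strand of RefSeq GRCm38.p6 at chr8:11312801-11312830, with the shared bases in capitals.
Col4a1 and Col4a2 shared start: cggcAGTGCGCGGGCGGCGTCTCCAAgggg
The libraries hold 3' ends, and the shared bases lie at the 5' ends of both genes. Of the 15 score genes, 9 matched RefSeq promoter windows of 250 bases before to 50 bases after a start, with 10 windows in all (4 epiblast arm and 5 primitive endoderm arm genes). The GATA motif AGATAA, on either strand, was in none of the 10 windows and in 11.2% of all 32851 windows; the octamer ATGCAAAT, bound by POU factors, was in none of the 10 and in 1.74% of all. These letters are not in these windows, and nothing else follows from it.

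Scores ran from 6.32 to −3.53 in replicate 1, from 2.61 to −4.48 in replicate 2 and from 3.08 to −3.59 in replicate 3. The cells at the lowest scores had totals of 15493, 31667 and 99894 counts, and those at the highest 21382, 1230462 and 802944. In replicates 2 and 3 the lowest cell had an epiblast arm of 0, that is, no count for any gene of that arm. The last upper cell and the next cell below scored 1.06 and 1.04 in replicate 1, 0.84 and 0.67 in replicate 2, and 1.32 and 1.08 in replicate 3. At the lower limit the last cell outside and the first inside scored −0.01 and −0.08, −0.96 and −1.09, and −0.44 and −0.62 in the same order. Between 3 and 5 cells of each library lay within 0.25 of a limit, so the groups are ranges of a score and not cell types. Cells also lay close to both sides of the gate: the highest inner cell summed to 706, 745 and 726 CPM of the trophectoderm genes, and the lowest cell over the gate to 924, 847 and 865 CPM.

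Cells high in 1 arm were not regularly low in the other. Pearson's r between the arms over the inner cells was −0.39 in replicate 1 (30 cells), 0.25 in replicate 2 (23 cells) and 0.27 in replicate 3 (29 cells), given as descriptions, since the cells of a library share its preparation. After thinning to 50000 counts, with inner cells chosen anew on those counts (28, 20 and 28 cells), r was −0.14, −0.00 and 0.12. Depth moved with the epiblast arm, whose r with the log total count of the cell was 0.25, 0.73 and 0.62, against 0.03, 0.35 and 0.37 for the primitive endoderm arm; its part in the result was not tested further than by thinning. Of the 26 upper cells, 18 were also among the 26 highest for the epiblast arm, ranked within libraries, and 14 among the 26 lowest for the primitive endoderm arm. Of the 26 lower cells, 17 were among the 26 highest for the primitive endoderm arm and 15 among the 26 lowest for the epiblast arm. In replicate 2, 1 cell of the middle range with 9984 counts had none for any of the 15 score genes.

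Counts for both lineage factors were common in the same cell. Nanog and Gata6 were found together in 65 of 82 inner cells, of which 21 were upper, 26 middle and 18 lower cells, while 6 cells had Nanog without Gata6, 8 had Gata6 without Nanog and 3 had neither. For Tdgf1 and Pdgfra, 14 upper cells and 1 lower cell had Tdgf1 without Pdgfra, no upper cell and 5 lower cells had Pdgfra without Tdgf1, and 12 and 17 had both. Tdgf1 and Pdgfra are score genes, so this too describes the choice of cells.

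**Figure D2:**
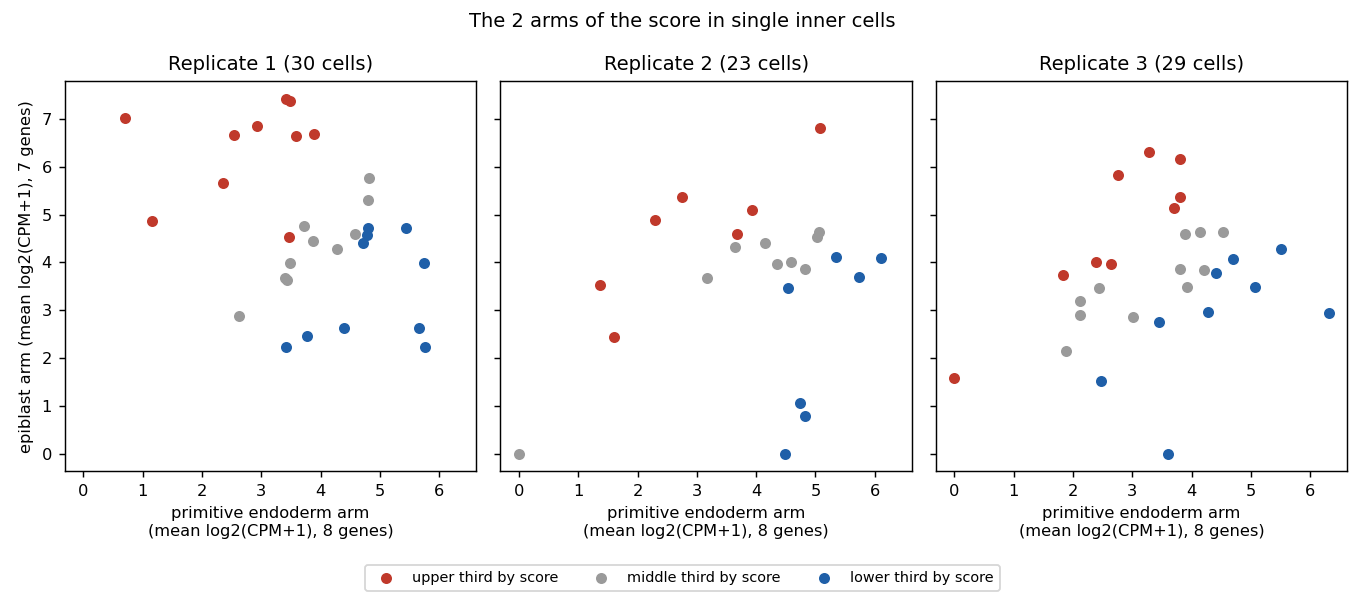
Each point is an inner cell, with its primitive endoderm arm on the horizontal and its epiblast arm on the vertical axis, both as mean log2(CPM+1); colours give the upper, middle and lower groups by score within the library. Upper, middle and lower cells lie in adjoining bands, and the arms have an r of −0.39, 0.25 and 0.27 from left to right.

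To test the arms against each other on genes that had no part in the ranking, the cells were ranked by 1 arm alone and the other arm's genes were compared between the high and low groups of that ranking, of the same sizes as before. The libraries were the replicates, and summed counts were tested by edgeR's quasi-likelihood method, with a block for the library, Benjamini-Hochberg adjustment over all genes tested and a threshold of 0.05. Standard errors are the size of the log2 fold change divided by the square root of the test's F. Intervals use the test's total degrees of freedom, which add to the residual ones those that edgeR borrows from all genes tested. None of the 13 arm genes that could be tested passed. In the ranking by the epiblast arm, 0% of 9397 genes passed (5% at an unadjusted p under 0.05, and 0.787% by DESeq2), and in the ranking by the primitive endoderm arm 0% of 9750 passed (5.08% unadjusted, and 0.677% by DESeq2).

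Gata6 came nearest among the endoderm genes. In cells ranked high for the epiblast arm it was at 46.3, 135 and 199 CPM, and in cells ranked low at 91.1, 372 and 143 CPM, so the groups overlapped and the high-ranked cells were the lower in 2 of 3 libraries. Its log2 fold change was −0.79 (SE 0.44, 95% interval −1.77 to 0.19, adjusted p = 0.982 by edgeR). Pdgfra was at 36.1, 39.8 and 57.7 CPM in high-ranked and 32.7, 45.9 and 29.7 CPM in low-ranked cells, a log2 fold change of 0.16 with an interval from −1.24 to 1.56. For Col4a1, Col4a2, Lamb1 and Serpinh1 the fold changes lay between 0.07 and 0.48, and their intervals reached from −1.90 to 2.51. Each of the 4 matrix genes and Pdgfra took the opposite sign when 1 of the libraries was left out: −0.11 for Pdgfra without replicate 3, −0.71 for Col4a1 and −1.03 for Lamb1 without replicate 2, −0.40 for Col4a2 without replicate 1, and −0.04 or −0.12 for Serpinh1 without replicate 1 or 2. Gata4 and Sox17 were under the filter on low counts. None of the 6 tested genes had the same direction in all 3 libraries, which 18.1% of all genes had upwards and 10.9% downwards.

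In the ranking by the primitive endoderm arm, Morc1 was at 62.2, 75.5 and 6.23 CPM in cells low for that arm and at 16.5, 6.93 and 4.50 CPM in cells high for it. It was higher on the epiblast side in all 3 libraries, by a log2 fold change of 2.02 (SE 0.78, 95% interval 0.26 to 3.77), and did not pass (adjusted p = 0.958 by edgeR). Utf1 lay the other way in all 3 libraries, at 473, 42.4 and 118 CPM against 503, 96.8 and 159 CPM, with a log2 fold change of −0.50 (interval −1.12 to 0.11). Over all genes, 11.1% were higher and 16.4% lower on the epiblast side in all 3 libraries. Nanog was at 95.8, 440 and 88.5 CPM against 77.5, 422 and 113 CPM, with a log2 fold change of 0.06 and an interval from −0.53 to 0.66. The Nanog interval leaves out a change of 1 log2 unit in either direction, whereas those of Prdm14 (−3.28 to 3.82) and Fgf4 (−10.35 to 1.97) leave a wide range.

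**Figure D3:**
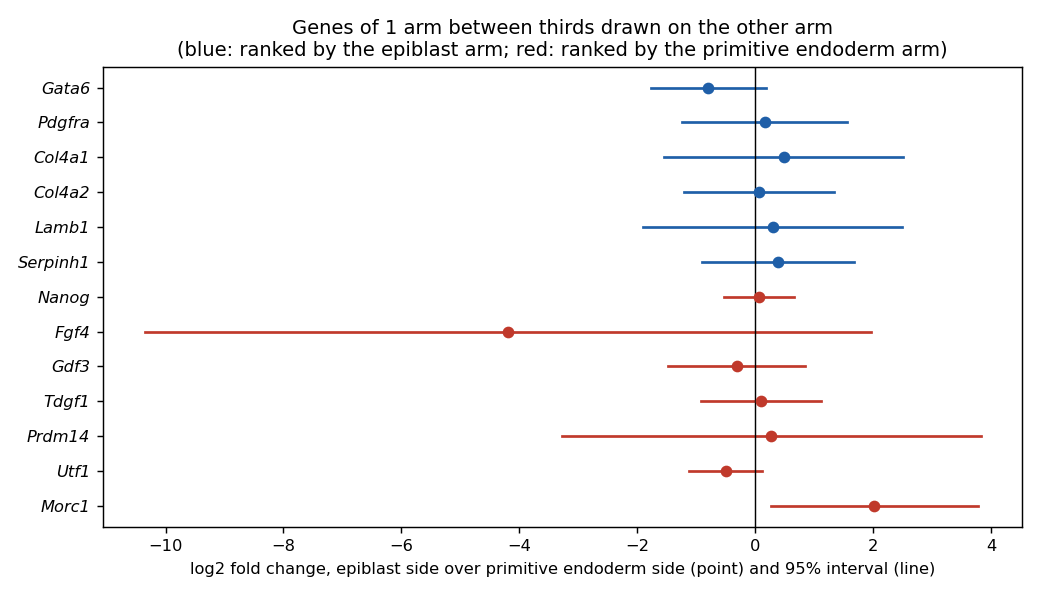
Log2 fold change, epiblast side over primitive endoderm side (points), with 95% intervals (lines), for genes of the arm that was not used in the ranking; blue, primitive endoderm arm genes between cells ranked by the epiblast arm; red, epiblast arm genes between cells ranked by the primitive endoderm arm. The intervals include 0 for 12 of the 13 genes, and Morc1 lies at 2.02.

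Genes outside the score were then compared between the upper and lower groups, leaving out the 15 score genes, the 6 gate genes and Actb. By edgeR's quasi-likelihood test 0% of 9546 genes passed, the smallest adjusted p being 0.227, and 5.54% had an unadjusted p under 0.05 (529 genes, 282 higher and 247 lower in the upper group). DESeq2 on the same sums called 0.943% higher and 0.482% lower (90 and 46 genes). With limma on the mean log2(CPM+1) of the cells, so that deep cells had no extra weight, 0.911% were higher and 0.0838% lower (87 and 8 genes), on a scale where the median gene already lay at 0.31. DESeq2 and limma shared 36 calls, 30 higher and 6 lower. The split of calls by direction thus differed between these tools, and no gene described below passed the main test.

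Depth and barcode position were not alike in the upper and lower groups. The median count per cell was 214694, 338343 and 614075 in the upper and 232446, 411794 and 492886 in the lower group, and the deepest upper cell of replicate 3 held 30.8% of its group's counts. Ribosomal protein genes took 22.4%, 4.89% and 15.6% of the counts of inner cells in replicates 1, 2 and 3. Barcodes 1 to 32 held 8, 4 and 2 upper and 2, 1 and 3 lower cells, and barcodes 33 to 64 held 0, 0 and 2 upper and 2, 6 and 4 lower cells. What a range of barcodes stands for is not labelled, and its part in the results was not tested. The inner cells of the 3 libraries used 61 barcode numbers, of which 20 recurred in at least 2 libraries. Cumulus, blood and fibroblast markers summed to at most 10.1 CPM in any group.

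Gadd45g, a stress and differentiation gene of the growth arrest family (chr13:51846678-51848468, plus strand), had the smallest p. It was at 804, 40.5 and 50.1 CPM in the upper group, 86.0, 7.58 and 8.15 CPM in the middle and 35.9, 0 and 0.987 CPM in the lower group. The lower group stayed below every upper library, with a log2 fold change of 5.33 (SE 0.63, adjusted p = 0.227 by edgeR). A single cell gave 81.3%, 85.2% and 74.8% of the upper counts, and 14 upper and 8 lower cells had a count. The adjusted p by edgeR was 0.00423 without replicate 2 and 0.0320 with the middle cells in the fit. The log2 fold change was 3.02 without the matrix genes in the score, 3.21 after thinning and 2.16 by limma on cell means. For fold changes after thinning, here and below, cells were chosen, scored and grouped anew on the thinned counts. Shares of cells with a count after thinning keep the original groups.

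Tdh, threonine dehydrogenase, is the enzyme that breaks down threonine in mouse pluripotent cells (chr14:63492347-63509092, minus strand). It stood at 173, 182 and 232 CPM in the upper group, 51.7, 111 and 103 CPM in the middle and 35.1, 36.7 and 45.1 CPM in the lower group. The 3 groups did not overlap and followed the order of the score. The log2 fold change was 2.24 (SE 0.40, 95% interval 1.33 to 3.16), with adjusted p = 0.899 by edgeR and 0.00103 by limma on cell means. It was 0.90 without the matrix genes in the score and 0.86 with groups of 1 in 2 cells. All 26 upper and 16 lower cells had a Tdh count, or 24 of 24 and 12 of 22 after thinning, against 36 of the 118 cells over the gate, and no cell held more than 46.5% of the counts of an upper or lower group.

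The other 8 genes of smallest p on the upper side were Slc29a2, Rpp25, Gsto1, Hspa1a, Tsnax, Dnajb1, Rrp9 and Ppp1r2. Hspa1a and Dnajb1 encode a heat shock HSP70 and its co-chaperone, and Hspa1a has a near-identical neighbour, Hspa1b, with which it can share reads. Dnajb1 was at 191, 300 and 137 CPM in the upper group against 108, 42.4 and 19.2 CPM in the lower group, without overlap, and Hspa1a at 126, 248 and 6.27 CPM against 17.0, 0.378 and 0 CPM. Single cells held up to 98.2% of the Hspa1a counts of an upper group. Slc29a2, a nucleoside transporter, was at 34.7, 80.4 and 6.84 CPM against 0.725, 1.89 and 0 CPM. It had a count in 9 upper and 3 lower cells, and 1 cell per library gave 84.6%, 56.2% and 86.7% of its upper counts. Ppp1r2, an inhibitor of protein phosphatase 1, was even across libraries at 171, 174 and 175 CPM against 83.7, 18.5 and 39.5 CPM. Of the 10 upper genes 7 did not overlap between the groups, which 3.76% of all genes did upwards; the 10 were picked by their p, so this count adds nothing to them.

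On the lower side the smallest p belonged to Sdc4, syndecan 4, a heparan sulfate proteoglycan that binds FGFs and matrix proteins (chr2:164424247-164443887, minus strand). It was at 159, 227 and 344 CPM in the upper group, 434, 1472 and 602 CPM in the middle and 424, 1043 and 1106 CPM in the lower group. Every lower and every middle library lay above every upper library, so the upper cells stood apart from the rest. The log2 fold change was −1.85 (SE 0.31, 95% interval −2.55 to −1.15), with adjusted p = 0.899 by edgeR and 0.00503 by limma on cell means. It was −0.49 without the matrix genes in the score and −0.89 after thinning. All upper, lower and over-gate cells had an Sdc4 count.

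Cubn encodes cubilin, an endocytic receptor of the visceral endoderm (chr2:13276338-13491813, minus strand). It was at 5.34, 28.2 and 17.6 CPM in the upper group, 4.95, 136 and 21.3 CPM in the middle and 33.3, 175 and 80.4 CPM in the lower group. Upper and lower groups did not overlap, with a log2 fold change of −2.57 (SE 0.54, adjusted p = 0.899 by edgeR), which was −0.80 without the matrix genes in the score and −1.56 after thinning. A count was present in 16 upper, 19 lower and 70 of 118 over-gate cells. The other 8 genes on this side were Enah, Zfhx3, Fabp5, Akr1b8, Rad51b, Bcas3, Cadm1 and Cux1. Enah, an actin regulator, was at 90.3, 371 and 272 CPM against 214, 1026 and 607 CPM, and Fabp5, a fatty acid carrier, at 406, 75.4 and 536 CPM against 787, 247 and 1290 CPM. Of the 10 lower genes 5 did not overlap between groups, which 2.14% of all genes did downwards; these too were picked by their p, so nothing is read from the count.

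**Figure D4:**
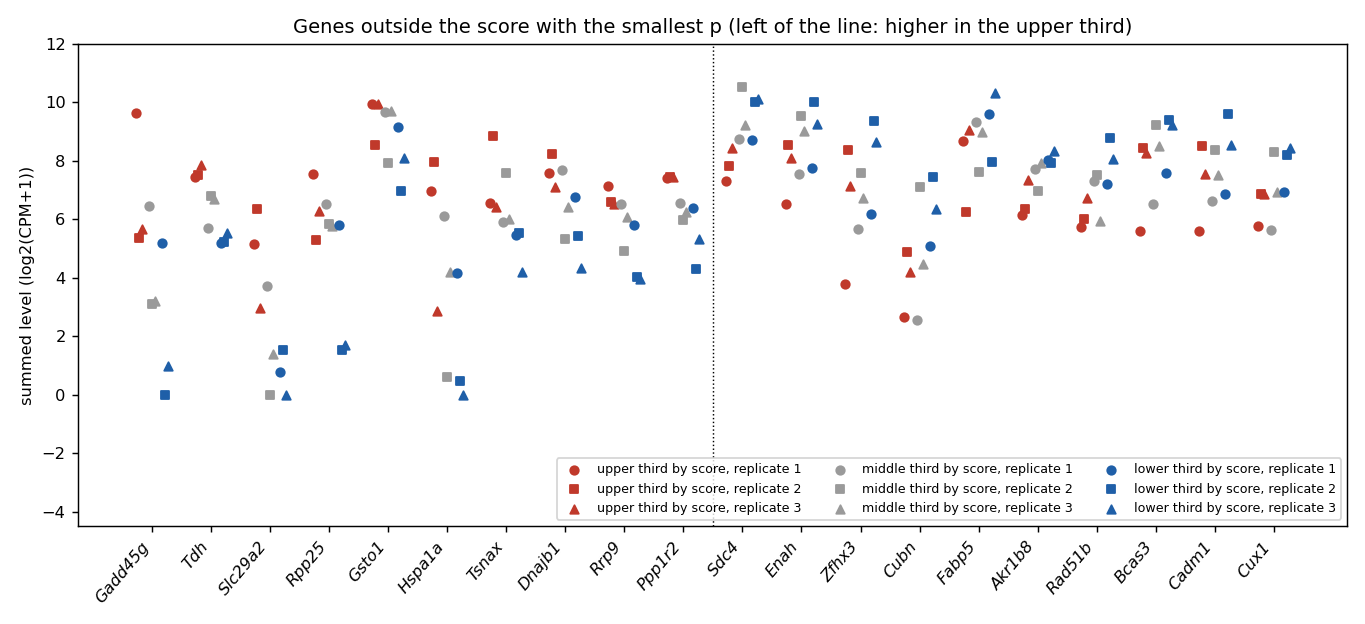
Level summed over the cells of the upper, middle and lower groups, as log2(CPM+1), for the 10 genes of smallest p in each direction, with 1 symbol shape per library. Tdh falls from the upper over the middle to the lower group in replicates 1 to 3, and in Sdc4 the middle group lies with the lower group.

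Genes that are long in the genome had lower values in the upper group, as a description without a test. Of the 10 named lower genes 7 span more than 100 kb of the genome and of the 10 named upper genes 0 do, while 14.4% of the 9526 tested genes with a span in the annotation are that long. Among genes whose mean log2 CPM was 4 or more, the median log2 fold change was −0.47 for the 947 genes over 100 kb and lay between −0.06 and 0.10 in the 4 shorter classes. The ratio for the long genes was negative in each library (−0.32, −0.21 and −0.43). Genes over 100 kb took 5.11%, 10.3% and 6.89% of the counts in the upper group and 6.38%, 12.7% and 9.95% in the lower group. Malat1, a nuclear noncoding RNA looked at after its values were seen, was at 3408, 591 and 1712 CPM in the upper and 4037, 792 and 3757 CPM in the lower group. Among the genes that lead the lower group, Col4a1 and Col4a2 are over 100 kb, and Pdgfra, Lamb1 and Serpinh1 are not; on the upper side Morc1 is. The part of gene length in the differences of single genes was not tested.

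**Figure D5:**
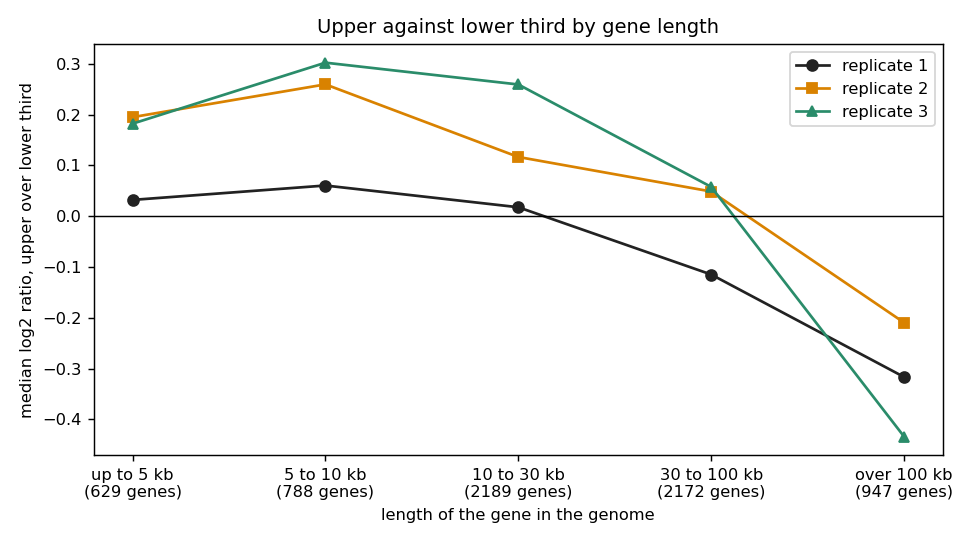
Median log2 ratio of the upper over the lower group, for genes in 5 classes of genomic length with the number of genes under each; 1 line per library. The lines end at −0.32, −0.21 and −0.43 in genes over 100 kb.

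The gene lists were read against all 9546 genes tested, whose median log2 fold change was −0.0036 and of which 15.2% were higher and 12.5% lower in the upper group in all 3 libraries. No list had a member past edgeR's threshold. The epiblast and naive pluripotency list of 30 genes had 27 tested, a median of 0.05, and 5 higher and 3 lower in all 3 libraries, with Tdh as the member of smallest p. Lifr, the receptor of leukaemia inhibitory factor, came next at 25.8, 27.9 and 32.03 CPM in the upper against 4.35, 0.378 and 14.3 CPM in the lower group, with levels at or near 0 in the middle group (0, 0 and 2.37 CPM). Sox2, a defining gene of the inner cell mass, had no count in any of the 82 cells, which allows a share of cells with a count of up to 3.66%, and none elsewhere in the files, so it could not serve as a check.

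The list of 25 primitive endoderm regulators had 16 tested and a median of 0.11, with library medians of −0.28, 1.21 and −0.72 that did not share a sign, and with 0 higher and 2 lower in all 3 libraries. Sox7, Foxa2, Gata5 and Stra6 had no count in the inner cells, again with a limit of 3.66%. Apoa1, an apolipoprotein of endoderm, was at 20.0, 1.83 and 16.6 CPM in the upper against 64.5, 7.57 and 27.6 CPM in the lower group. Apoe was at 1008, 59.8 and 310 CPM against 1132, 15.1 and 112 CPM, the lower group being higher in replicate 1 alone. The endocytic list, with 8 of 9 tested, had a median of −0.45, with 1 member higher and 3 lower in all 3 libraries. Its library medians were −0.52, 0.72 and −0.65 and did not share a sign. Rab11a was the higher member, at 222, 84.1 and 210 CPM in the upper against 170, 18.2 and 107 CPM in the lower group. Its log2 fold change was 1.08 (SE 0.43, adjusted p = 0.899 by edgeR).

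Basement membrane genes outside the score, with 18 of 24 tested, had 0 members higher and 5 lower in all 3 libraries. Their library medians were −0.03, −0.31 and −0.64, against −0.07, 0.18 and 0.09 for all genes, so that replicate 1 showed no lower value than all genes. The median of the fitted values was −0.89, below each of the library medians. Lamc1, the laminin chain that pairs with Lamb1, was at 17.3, 56.1 and 33.2 CPM in the upper against 23.6, 134 and 148 CPM in the lower group. Its log2 fold change of −1.39 (SE 0.55, adjusted p = 0.899 by edgeR) turned to 0.09 when the cells were thinned and grouped anew. P4ha2, a collagen prolyl hydroxylase, was at 13.3, 258 and 114 CPM against 77.5, 372 and 140 CPM. Both overlapped between groups, and Lamc1 is 1 of the genes over 100 kb.

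In FGF signalling, 23 of 31 genes were tested, with a median of −0.12, 4 higher and 5 lower in all 3 libraries. Fgfr1, the receptor through which early inner cells read FGF4, was at 31.6, 68.9 and 26.6 CPM in the upper against 61.2, 98.4 and 101 CPM in the lower group, a log2 fold change of −1.21 (SE 0.52, adjusted p = 0.899 by edgeR). The ERK phosphatase gene Dusp4 was at 0.445, 18.3 and 0.456 CPM against 7.61, 29.5 and 12.1 CPM, with a single cell giving at least 79.6% of the counts in each group. In the Nodal list, with 12 of 20 tested and a median of −0.32, 0 were higher and 3 lower in all 3 libraries. Pcsk6, a convertase that processes Nodal, was at 42.2, 77.3 and 99.7 CPM against 65.2, 272 and 116 CPM.

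The BMP and ID list had a median of 1.38, with 11 of 16 tested, 4 higher and 0 lower in all 3 libraries and library medians of 0.52, 1.83 and 1.24. Summed over its 16 genes, the level was 457, 378 and 380 CPM in the upper and 487, 142 and 223 CPM in the lower group. The sum was thus lower in the upper group in replicate 1, and so it was in the median cell of all libraries (289 against 303 CPM). Id1, a target of BMP signalling, was at 4.89, 8.09 and 5.01 CPM in the upper and at 0 in all 3 lower groups. It had a count in 5 of 26 upper and 0 of 26 lower cells, which allows a share of up to 11.5%, and no fold is given at these levels. Bmpr1a, a BMP receptor, was at 64.5, 76.2 and 46.3 CPM against 42.8, 14.0 and 17.8 CPM, without overlap, with a log2 fold change of 1.38 (SE 0.62, adjusted p = 0.907 by edgeR). In Wnt signalling, with 16 of 22 tested and a median of 0.14, 1 was higher and 2 lower in all 3 libraries. Tcf7l2 was at 4.89, 88.8 and 54.5 CPM against 42.0, 97.2 and 152 CPM. Lrp6 lay the other way, at 85.8, 28.2 and 14.2 CPM against 20.3, 3.40 and 12.8 CPM, with 87.6% of its upper counts of replicate 1 in a single cell. Tcf7l2 and Lrp6 are genes over 100 kb.

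Klf2, the locus of the reporter and a factor of naive pluripotency (chr8:72319033-72321656, plus strand), was at 379, 669 and 485 CPM in the upper, 322, 715 and 294 CPM in the middle and 357, 393 and 143 CPM in the lower group. It was higher in the upper than in the lower group in all 3 libraries, with overlap between them. Its log2 fold change was 0.78 (SE 0.36, 95% interval −0.05 to 1.61, adjusted p = 0.914 by edgeR), and limma on cell means gave 2.01 with an adjusted p of 0.0231. Without the matrix genes in the score the log2 fold change was 0.11, and without replicate 3 it was 0.40. A count was present in 26 upper and 23 lower cells, or 24 of 24 and 17 of 22 after thinning. Of the 15 KLF genes 13 were tested, with a median of 0.72, library medians of 0.68, 0.56 and −0.30, and 3 higher and 1 lower in all 3 libraries, the last being Klf6 at 60.0, 11.5 and 87.9 CPM against 113, 168 and 99.4 CPM.

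The lists of S phase and of G2 and M phase genes had medians of opposite sign. Of 21 tested S phase genes 9 were higher and 2 lower in the upper group in all 3 libraries, with a median of 0.32. Mcm6, a subunit of the replicative helicase, was at 448, 828 and 157 CPM against 183, 32.5 and 82.9 CPM, and Ung, uracil DNA glycosylase, at 160, 206 and 82.6 CPM against 111, 9.08 and 13.1 CPM. Of 22 G2 and M phase genes 0 were higher and 7 lower in all 3 libraries, with a median of −0.31. Mki67 was at 22.7, 25.1 and 26.1 CPM against 78.6, 110 and 55.7 CPM, and Cenpf, a kinetochore protein, at 87.6, 110 and 67.0 CPM against 201, 154 and 145 CPM. Mki67 and Cenpf did not overlap between groups and did not pass (adjusted p = 0.899 for both by edgeR). In replicate 3 the median of the G2 and M phase list was 0.18, and in replicate 2 that of the S phase list was −0.01.

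The lists of metabolism, secretion and cell structure had medians from −0.33 to 0.32, with glycolysis at −0.33 (15 tested), nuclear-coded oxidative phosphorylation at −0.03 (26 tested), cholesterol synthesis at 0.32 (18 tested), the secretory pathway at −0.13 (24 tested), DNA methylation enzymes at −0.04 (10 tested), polarity and adhesion at 0.02 (18 tested), and p53 and apoptosis at −0.14 (13 tested). Within them, Slc2a3, a glucose transporter, was at 84.9, 376 and 104 CPM in the upper against 60.5, 8.70 and 22.9 CPM in the lower group. Tpi1, a glycolytic isomerase, lay the other way in all 3 libraries, at 143, 58.2 and 173 CPM against 197, 148 and 380 CPM; with it, 4 of the 15 glycolysis genes were lower and 2 higher in all 3 libraries. Of the 26 oxidative phosphorylation genes, 6 were higher and 4 lower in all 3 libraries, with library medians of 0.16, −0.09 and −0.04. Among the higher ones, Uqcrfs1, a subunit of respiratory complex III, was at 318, 88.2 and 359 CPM against 221, 3.78 and 64.9 CPM. Atp5b, the catalytic subunit of ATP synthase, was at 2030, 1970 and 1040 CPM against 1306, 519 and 609 CPM. Pard3, a polarity scaffold and a gene over 100 kb, was at 18.2, 420 and 285 CPM against 168, 833 and 564 CPM. Ezr, which ties the cell cortex to the membrane, was higher in the upper group in all 3 libraries, at 166, 309 and 107 CPM against 124, 79.4 and 32.6 CPM.

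Markers of other origin were read beside these results. Of 20 trophectoderm genes outside the gate 11 were tested, with 3 higher and 3 lower in all 3 libraries, a median of −0.46 and library medians of −0.15, 0.94 and −0.24, which did not share a sign. Their summed level was 380, 964 and 786 CPM in the upper and 495, 476 and 904 CPM in the lower group. Tfap2c, a trophectoderm factor also found in inner cells, was at 126, 177 and 45.8 CPM in the upper against 107, 0.757 and 23.7 CPM in the lower group (adjusted p = 0.928 by edgeR and 0.0205 by limma on cell means), and the tight junction gene Cldn4 at 38.7, 234 and 158 CPM against 25.4, 120 and 115 CPM. Of the 6 gate genes, which chose the inner cells and get no test, Krt18 and Lgals3 were higher in the upper group in all 3 libraries. Krt18 was at 94.7, 79.6 and 164 CPM against 69.9, 67.7 and 124 CPM. Lgals3 was at 22.2, 4.96 and 18.5 CPM against 12.3, 0.378 and 0.493 CPM. Krt8, Gata3 and Id2 were higher there in 2 libraries and Tspan8 in 1. By the median cell, the 6 genes summed to 276, 520 and 98.3 CPM in the upper and 291, 170 and 249 CPM in the lower group. That sum was higher in the upper group in replicate 2 alone. Oocyte and maternal transcripts summed to 664, 179 and 274 CPM in the upper and 401, 37.8 and 189 CPM in the lower group, higher in the upper group in all 3 libraries. Of these, Khdc3, a gene of the maternal subcortical complex, was at 505, 120 and 191 CPM against 324, 14.4 and 91.5 CPM. Immediate early and dissociation genes summed to 312, 320 and 61.8 CPM against 127, 53.3 and 27.4 CPM, with Hspa1a and Jun as the members of smallest p. The part of these transcripts in the results above was not tested.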

How the data were processed

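Counts per gene symbol and barcode, for 23154 symbols in 3 libraries of mouse blastocyst cells, were used as the authors deposited them, without normalization. CASAVA 1.8, HISAT2, HTSeq and mm10 are named in the submitters' processing notes; other versions, gene models, strandedness and any use of molecular tags were not given in the sources used here. Library totals were 30573711, 27610866 and 54444536 counts, and inner cells held 8239630, 10299220 and 19576771. Limits for shares of 0 use 3 counts and cover counting error only.

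The cells, score, gene lists and tests were chosen with earlier results of these data known. Counts were summed per library and group (6 sums), filtered by filterByExpr, scaled by TMM and tested with edgeR 4.0.16 (R 4.3.3), with the library as a block, since both groups come from the same libraries; p-values were adjusted by Benjamini-Hochberg over all genes tested. DESeq2 1.42.0 and limma 3.58.1 were alternatives, and the scripts were tested on simulated data. In the fits after thinning, cells were chosen, scored and grouped anew on the thinned counts. Doublets were not called, since cells were hand-picked; 1 alternative dropped cells over 2.5 times the median total of their library's inner cells. The named genes are the 15 score genes, the 10 of smallest p in each direction whose mean log2 CPM was 4 or more (since none was called), up to 2 of smallest p per list, and Klf2; Malat1, Neb and Rnf122 were added after their values were seen. Spans are from GENCODE M21.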

Additional observations from a re-analysis of the deposited data

How the results depend on the processing

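With 3 libraries, few cells per group and sums that a single cell can dominate, these data limit what can be called. The number of genes called between upper and lower groups was 0 in the reported fit and also with DESeq2 size factors, larger or smaller groups (1 in 2 or 1 in 4 cells), a gate of 400 CPM, thinning, the score without matrix genes, scaled score genes, without cells over 2.5 times the median total and with no replicate block (the pairing of groups by library left out). It was 136 with DESeq2 (90 higher), 96 with no filter on low counts (80 higher), 95 with limma on cell means (87 higher) and 1, Gadd45g, with the middle cells in the fit. Leaving out 1 library gave 0 to 3 calls, the 3 being Gadd45g, Neb and Rnf122 without replicate 2. Ranked by the epiblast arm alone, 0 genes became 74 with DESeq2, 51 with no filter, and 0 to 39 when a library was left out (39 without replicate 2). Ranked by the primitive endoderm arm alone, 0 became 66, 31, and 0 to 5 (5 without replicate 1). The arm genes were called in none of these fits. The cause of these differences between tools was not tested.

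Of the 20 genes of smallest p, 18 kept their direction in every alternative that gave them a value, as did 24 of the other 38 named list members with a fold and 3 of the 13 single-arm genes. The size of the 20 fold changes was less stable: each was over 1.5 times smaller under at least 1 alternative, on the log2 scale, 18 of them without the matrix genes in the score, 14 with groups of 1 in 2 cells and 11 of 19 after thinning (Rpp25 from 3.56 to 0.33, 0.37 and 0.66; Hspa1a was 1.68 without the matrix genes, 1.73 after thinning and 8.96 without replicate 1). Without the 4 matrix genes in the score, the log2 fold changes turned to −0.026 for Gsto1, −0.040 for Rrp9, −0.093 for Apoe, −0.13 for Lrp6, 0.028 for Calr, −0.024 for Pdia3, 0.0017 for Tpi1, −0.16 for Msmo1, −0.57 for Tfap2c and −0.52 for Zp3. Groups of 1 in 2 cells gave −0.41 for Apoe and scaled score genes 0.30 for Apoa1. Thinning gave 0.089 for Lamc1 and, in the single-arm rankings, −0.60 for Lamb1, −0.019 for Tdgf1 and 0.27 for Utf1. Limma on cell means gave 0.25 for Tet2 and 0.57 for Hmgcs1. Leaving out 1 library at a time gave ranges across 0, from −0.52 (without replicate 1) to 2.15 for Zfp57 and from −1.63 to 0.13 (without replicate 1) for Cdkn1a. In the ranking by the epiblast arm such ranges were −0.11 (without replicate 3) to 0.53 for Pdgfra, −0.71 (without replicate 2) to 1.73 for Col4a1, −0.40 (without replicate 1) to 0.45 for Col4a2, −1.03 (without replicate 2) to 1.66 for Lamb1 and −0.12 (without replicate 2) to 1.36 for Serpinh1. In the ranking by the primitive endoderm arm they were −0.12 (without replicate 1) to 0.29 for Nanog, −1.05 to 0.32 (without replicate 2) for Gdf3, −0.64 (without replicate 1) to 0.79 for Tdgf1 and −1.99 (without replicate 2) to 1.97 for Prdm14.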
